A study of Mus musculus with 6 samples.

Results

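The set described here is 10 of the 54834 genes in the table, taken by symbol. They hold 4 pairs of respiratory subunit isoforms (*Cox4i2* with *Cox4i1*, *Ndufa4l2* with *Ndufa4*, *Cox6a2* with *Cox6a1*, *Cox7a1* with *Cox7a2*) and 2 mitochondrial genes linked to oxygen supply, *Higd1a* and *Lonp1*. The libraries came from mouse primary myoblasts of the *Pax7*-ZSGreen genotype, grown from sorted muscle stem cells (satellite cells) and adapted to 1%, 4% or 20% pO2 over more than 2 weeks. At each pO2, one library had 1 µM PT2385 for 48 h and the other had the 0.1% DMSO vehicle. PT2385 blocks HIF-2α, one of the oxygen-regulated subunits of the hypoxia-inducible factors. Every one of the 6 libraries is a pool of RNA from 9 cultures (3 temporal replicates), and a condition has no second library, so the spread between cultures cannot be seen.

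Values were taken as FPKM, fragments scaled to transcript length and to the fragments sequenced, which allows levels of different genes to be compared. The estimated depth was 19981000 to 23386000 fragments a library. Differences are of log2(FPKM + 1), which understates the change of weakly expressed genes, and tests cover 11967 genes, those that average 1 FPKM or more over the 6 libraries. Of the 10 members, 7 met that limit, and *Cox4i2*, *Ndufa4l2* and *Cox6a2* did not. Of all genes tested, 25.0% passed as higher at 1% and 27.5% at 4% against 20% pO2. In vehicle, 3.97% were 2-fold higher at both hypoxic levels. All 10 hypoxia check genes passed the test at both hypoxic levels and were more than 2-fold higher there in vehicle. *Bnip3*, a mitophagy receptor gene, for example, had 415.1 and 415.3 FPKM at 1%, 297.8 and 318.7 FPKM at 4%, and 16.5 and 14.8 FPKM at 20% pO2 (PT2385, then vehicle). The myoblast gene *Myod1* lay between 500.8 and 951.0 FPKM in every library, the 5 endothelial markers summed to at most 1.09 FPKM, the 6 fibroblast markers to 88.6 to 146.3 FPKM and the 9 mural cell markers to 46.0 to 66.7 FPKM (the mural genes *Vtn* and *Higd1b* were at 0 throughout). Most of the fibroblast sum was 1 gene, *Col3a1*, at 83.6 to 139.0 FPKM, and *Ly6a* had 1.90 to 6.86 FPKM. The fibroblast markers *Pdgfra*, *Dcn* and *Col1a1* each averaged at most 0.367 FPKM over the 6 libraries, and *Lum* was listed at 0 throughout. Some genes are listed at exactly 0 in one library and high in another (17 genes at 50 FPKM or more), so a 0 is reported only as listed.

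Cytochrome c oxidase (complex IV) passes electrons to oxygen at the end of the respiratory chain. Its catalytic core is encoded in mitochondrial DNA, and the nuclear subunits around it tune its activity and occur in several isoforms. Some isoforms mark a tissue, such as the heart and skeletal muscle forms encoded by *Cox6a2* and *Cox7a1*. Others have been tied to low oxygen. COX4I2 takes the place of COX4I1 in lung and in hypoxic human cells, the protease LONP1 degrades COX4I1 there, NDUFA4L2 is a HIF-1 target related to the complex IV subunit NDUFA4, and HIGD1A is an inner membrane protein of the HIG1 domain family, also a HIF-1 target. HIF dimers bind DNA at the core ACGTG or GCGTG.

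Promoter windows of 300 bases, 250 before and 50 after the RefSeq start site (GRCm38.p6), were at hand for 6 of the 10 members. *Ndufa4*, *Cox6a1*, *Cox7a1*, *Cox7a2*, *Higd1a* and *Lonp1* were matched. The 5 printed belong to 3 of the 4 members that were higher in hypoxia (*Lonp1*, *Higd1a*, *Cox7a1*) and to the pair partners lower at both levels (*Ndufa4*, *Cox7a2*). The window of *Cox6a1*, which also passed as higher by a small difference (0.15 at 1% and 0.16 at 4%), is not printed. Capitals mark every ACGTG or GCGTG, on either strand, so CACGT and CACGC are the same letters read on the other strand.
Lonp1 (chr17:56626854-56627153, minus strand): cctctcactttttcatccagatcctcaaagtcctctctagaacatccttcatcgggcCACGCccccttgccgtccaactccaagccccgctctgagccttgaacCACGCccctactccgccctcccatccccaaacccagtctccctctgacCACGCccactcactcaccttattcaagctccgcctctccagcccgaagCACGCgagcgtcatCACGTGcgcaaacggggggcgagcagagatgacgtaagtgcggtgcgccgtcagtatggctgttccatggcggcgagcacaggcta
Higd1a (chr9:121857747-121858046, minus strand): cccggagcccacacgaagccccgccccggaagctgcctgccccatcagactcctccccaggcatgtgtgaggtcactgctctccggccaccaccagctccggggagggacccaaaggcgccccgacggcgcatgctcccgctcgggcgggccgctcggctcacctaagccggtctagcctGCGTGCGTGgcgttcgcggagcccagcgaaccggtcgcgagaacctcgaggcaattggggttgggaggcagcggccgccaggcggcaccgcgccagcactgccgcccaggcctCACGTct
Cox7a1 (chr7:30183921-30184220, plus strand): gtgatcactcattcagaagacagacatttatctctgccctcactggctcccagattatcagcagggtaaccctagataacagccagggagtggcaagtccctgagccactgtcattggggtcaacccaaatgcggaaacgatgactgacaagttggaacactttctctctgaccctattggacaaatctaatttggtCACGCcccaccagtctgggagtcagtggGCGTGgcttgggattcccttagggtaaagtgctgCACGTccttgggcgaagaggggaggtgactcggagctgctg
Ndufa4 (chr6:11907401-11907700, minus strand): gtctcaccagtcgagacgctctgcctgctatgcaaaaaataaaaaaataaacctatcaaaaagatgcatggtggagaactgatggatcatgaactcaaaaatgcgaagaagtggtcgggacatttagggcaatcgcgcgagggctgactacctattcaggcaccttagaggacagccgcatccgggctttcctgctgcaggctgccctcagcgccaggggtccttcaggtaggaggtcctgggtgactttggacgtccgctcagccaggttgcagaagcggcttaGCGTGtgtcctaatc
Cox7a2 (chr9:79759804-79760103, minus strand): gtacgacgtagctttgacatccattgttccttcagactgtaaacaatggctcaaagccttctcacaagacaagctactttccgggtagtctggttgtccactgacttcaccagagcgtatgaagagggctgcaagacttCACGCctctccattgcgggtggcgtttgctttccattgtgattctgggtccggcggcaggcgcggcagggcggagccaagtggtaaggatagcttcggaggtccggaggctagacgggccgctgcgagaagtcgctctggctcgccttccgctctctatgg
The *Lonp1* window held 6 matches, of which 2 overlap on opposite strands as CACGTG. Of the 32851 windows of all genes, 0.694% had at least 6. *Cox7a1* and *Higd1a* had 3 each, a count that 8.93% of all windows reached, and the neighbouring pair in *Higd1a* shares a base. The *Higd1a* window ends at 121858046, inside the GENCODE gene span, which runs to 121858362. It therefore does not cover the outermost annotated start of this minus-strand gene. *Ndufa4* and *Cox7a2* had 1 each, a count that 43.8% of windows reached, and the *Cox6a1* window had 0. These are letter matches in a short window and not measured binding sites.

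Of the members that were highest at 1% and lowest at 20% pO2, *Higd1a* differed most. It lies at chr9:121848563-121858362 on the minus strand. It had 175.5 FPKM with PT2385 and 161.9 FPKM with vehicle at 1% pO2. At 4% pO2 it had 96.2 and 104.2 FPKM, and at 20% pO2 it had 33.3 and 30.3 FPKM, in the same order of treatments. The 3 levels did not overlap. In vehicle the FPKM ratio was 5.35 at 1% over 20% pO2 (95% interval 4.46 to 6.47, counting error only) and 3.44 at 4% over 20% (2.84 to 4.19). Over both treatments the difference by limma was 2.37 ± 0.07 at 1% (SE, adjusted p = 5.38e-05) and 1.63 ± 0.07 at 4% (adjusted p = 0.000122). The step from 4% to 1% also passed, at 0.75 ± 0.07 (adjusted p = 0.00184). In vehicle its difference was the 124th highest of 11967 at 1% and the 329th at 4%.

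No other HIG1 family gene passed the test. *Higd2a*, which encodes a complex IV assembly protein, had 95.1 and 83.0 FPKM at 1%, 92.5 and 85.5 FPKM at 4%, and 89.7 and 78.5 FPKM at 20% pO2 (PT2385, then vehicle), and the levels overlapped. It did not pass the test at 1% (0.08 ± 0.04, adjusted p = 0.180) or at 4% (0.08 ± 0.04, adjusted p = 0.166). *Higd1b* and *Higd1c* were listed at 0 in all 6 libraries. Thus 1 of the 2 family members tested, *Higd1a* itself, was higher at each hypoxic level, beside 25.0% of all genes at 1% and 27.5% at 4%. The genes with the profile most like that of *Higd1a* over the 6 libraries were *Fam162a*, *Mgst3*, *Hilpda*, *Glrp1* and *Loxl2* (root mean square difference of centred log2 values 0.06 to 0.13, picked out after the values were seen).

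*Lonp1*, which encodes the ATP-dependent protease of the mitochondrial matrix, followed the same order at a smaller scale. It lies at chr17:56614297-56626887 on the minus strand. It had 86.9 FPKM with PT2385 and 94.4 FPKM with vehicle at 1% pO2, 66.3 and 66.5 FPKM at 4%, and 37.8 and 36.2 FPKM at 20%. Again the levels were apart. The vehicle ratio was 2.61 at 1% over 20% (2.48 to 2.74) and 1.84 at 4% over 20% (1.74 to 1.93). The limma difference was 1.27 ± 0.06 at 1% (adjusted p = 0.000142), 0.83 ± 0.06 at 4% (adjusted p = 0.000389) and 0.44 ± 0.06 between 1% and 4% (adjusted p = 0.00408). Its vehicle difference at 4%, 0.86, stayed under 2-fold.

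Among the 20 mitochondrial proteases and chaperones tested, *Lonp1* was the only one higher at 1% pO2, and 11 were lower. At 4% pO2, 2 were higher (*Lonp1* and the peptidase gene *Xpnpep3*, 0.43 ± 0.10, adjusted p = 0.0176) and 10 were lower. Over all genes tested the shares were 25.0% higher and 21.9% lower at 1%, and 27.5% higher and 22.7% lower at 4%. The median limma difference of the list was -0.20 at 1% and -0.18 at 4%, beside 0.00142 and 0.0193 over all genes tested. *Hspe1*, which encodes the HSP10 lid of the matrix chaperonin, had 182.4 and 175.4 FPKM at 1%, 201.9 and 215.7 FPKM at 4%, and 341.1 and 325.9 FPKM at 20% pO2. *Htra2*, an intermembrane space protease gene, had 28.0 and 30.6 FPKM, 30.5 and 29.4 FPKM, and 52.0 and 48.1 FPKM in the same order. *Clpp*, the proteolytic subunit of the other ATP-dependent matrix protease, had 47.2 and 44.0 FPKM, 45.2 and 43.3 FPKM, and 62.7 and 60.1 FPKM. In these 3 genes the hypoxic libraries were all below the normoxic ones, the opposite of *Lonp1*. *Immp2l*, an inner membrane peptidase gene, fell most (by 1.48 at 1% and by 1.25 at 4%), at 0.934 to 5.80 FPKM. The peroxisomal homologue *Lonp2* did not pass at either level (0.11 ± 0.06, adjusted p = 0.196, and -0.14 ± 0.06, adjusted p = 0.115).

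**Figure D1:**
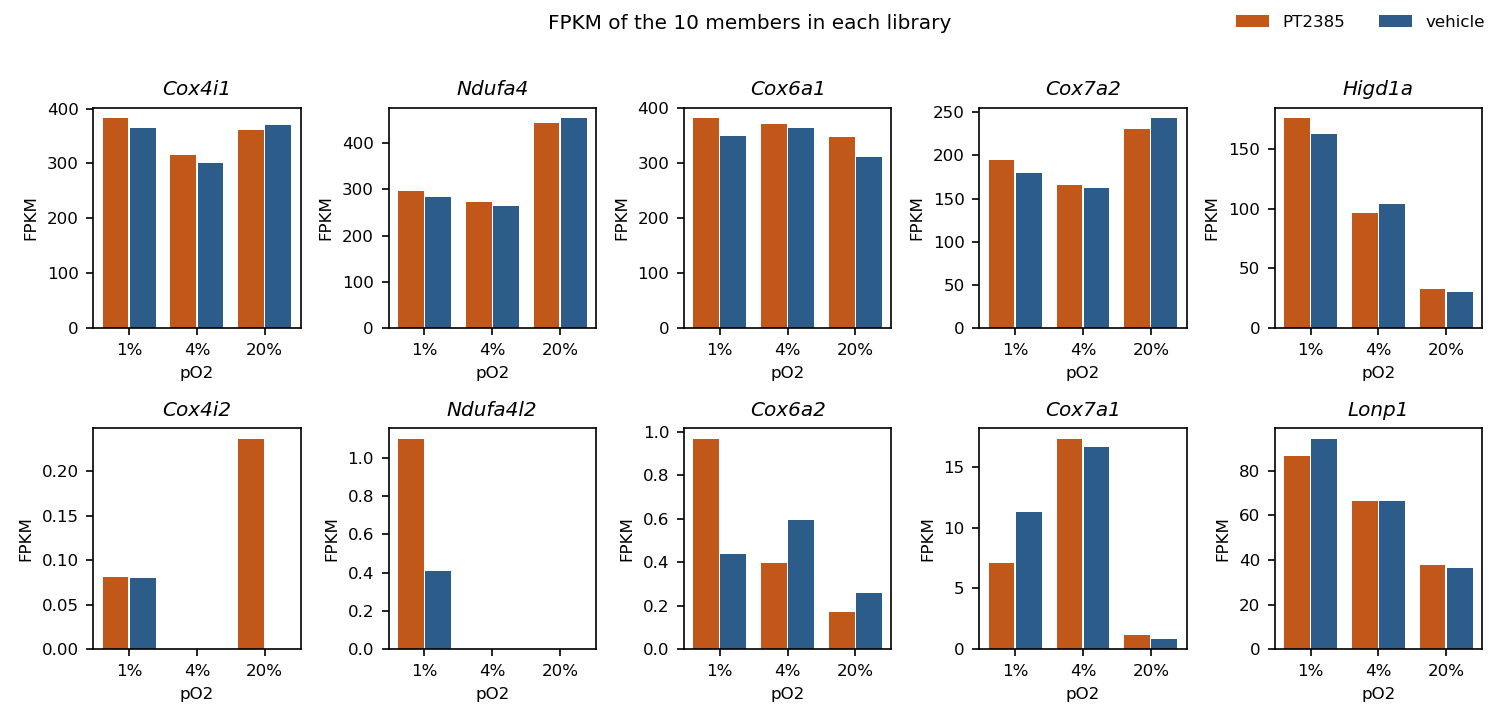
FPKM of the 10 members (vertical axes from 0, one scale a panel) at 1%, 4% and 20% pO2, with 1 library a bar, PT2385 left of vehicle. *Higd1a* and *Lonp1* step down with rising pO2, *Cox7a1* peaks at 4% (17.3 and 16.6 FPKM), *Ndufa4* and *Cox7a2* are lower in all 4 hypoxic libraries, and *Cox4i2*, *Ndufa4l2* and *Cox6a2* stay at or below 1.10 FPKM.

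Of the 4 pairs, *Cox7a1* with *Cox7a2* was the one whose balance shifted by several percent. *Cox7a1* (chr7:30184144-30186078, plus strand) had 7.06 FPKM with PT2385 and 11.3 FPKM with vehicle at 1% pO2. It had 17.3 and 16.6 FPKM at 4%, against 1.18 and 0.801 FPKM at 20% pO2. All hypoxic libraries were above both normoxic ones, and 4% was above 1%. At 20% pO2 these values rest on about 6.02 to 8.51 fragments with PT2385 and 4.07 to 5.75 with vehicle, depending on the transcript assumed. The vehicle ratio was therefore wide, 14.2 at 1% over 20% (5.32 to 54.6) and 20.8 at 4% over 20% (7.99 to 79.6).

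By limma, *Cox7a1* was higher by 2.33 ± 0.22 at 1% (adjusted p = 0.00114) and by 3.18 ± 0.22 at 4% (adjusted p = 0.000386). With a pseudocount of 0.1 these became 3.07 and 3.99. Its level at 1% was lower than at 4% by -0.85 ± 0.22 (adjusted p = 0.0302). That call did not hold with a variance without trend (adjusted p = 0.0557), without the filter on low values (adjusted p = 0.123) or without the 1% PT2385 library (-0.46, adjusted p = 0.102). It was also lost without the 4% PT2385 library (-0.74, adjusted p = 0.158) and without the 4% vehicle library (-0.96, adjusted p = 0.0927).

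Marker lists of other cells and states were measured beside *Cox7a1*. The 12 muscle differentiation markers summed to 56.1 and 55.3 FPKM at 1%, 84.4 and 140.2 FPKM at 4%, and 42.0 and 63.8 FPKM at 20% pO2 (PT2385, then vehicle). In vehicle the sum was lower at 1% than at 20%, and at 4% it differed between the PT2385 and vehicle libraries. Of them, 10 were tested, 1 was higher at 1% and 5 at 4%, and 0 were lower at either, beside 25.0% of all genes higher at 1% and 27.5% at 4%. None was at 0 in all libraries. The 8 leukocyte markers summed to 22.9 and 20.8 FPKM at 1%, 103.4 and 93.7 FPKM at 4%, and 5.08 and 4.39 FPKM at 20%. All 3 tested were higher at 1%, and 2 of the 3 (*Cd68* and *Laptm5*) were higher at 4%, beside 25.0% and 27.5% of all genes. *Cd68*, a macrophage lysosomal gene, had 14.6 and 13.5 FPKM at 1%, 9.88 and 10.4 FPKM at 4%, and 2.78 and 2.08 FPKM at 20%. *Cd14*, a lipopolysaccharide co-receptor gene, had 3.98 and 3.66 FPKM, 1.86 and 2.504 FPKM, and 1.75 and 1.75 FPKM in the same order. Most of the 4% sum was *Laptm5* (91.5 and 80.7 FPKM), while the defining genes *Ptprc*, *Adgre1* and *Itgam* were at or near 0 (at most 0.00994 FPKM). The 7 myoblast markers summed to 885.8 and 849.6 FPKM at 1%, 886.4 and 799.2 FPKM at 4%, and 1330.0 and 1302.7 FPKM at 20%. Of the 6 tested, 4 were lower at 1% and 5 at 4%, and 0 were higher. The shares of all genes lower were 21.9% at 1% and 22.7% at 4%. Among the 9 mural cell markers, 4 were tested, with 2 higher and 1 lower at 1% and 2 higher and 2 lower at 4%. Their sum was 62.0 and 66.7 FPKM at 1%, 46.0 and 53.3 FPKM at 4%, and 62.2 and 62.7 FPKM at 20%. *Notch3*, a mural cell receptor gene, was higher at both levels, with 3.03 and 3.18 FPKM at 1%, 8.28 and 8.57 FPKM at 4%, and 1.26 and 2.101 FPKM at 20%. *Rgs5*, a regulator of G protein signalling, was also higher at both, with 38.3 and 41.4 FPKM, 30.0 and 35.5 FPKM, and 20.7 and 22.5 FPKM in the same order. *Mcam*, an adhesion molecule gene, was lower at both, with 19.1 and 20.3 FPKM, 5.96 and 6.27 FPKM, and 38.5 and 36.4 FPKM. Of the 2 fibroblast markers tested, both were higher at 1%, and 1 was higher and 1 lower at 4%. The mural and fibroblast counts stand beside 25.0% higher and 21.9% lower of all genes at 1%, and 27.5% and 22.7% at 4%. The part of these marker shifts in the *Cox7a1* difference was not tested, and more cells with the transcript cannot be told apart from more transcript a cell.

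*Cox7a2* (chr9:79755361-79759878, minus strand), the widely expressed partner, went the other way. It had 194.6 and 180.2 FPKM at 1%, 166.0 and 162.9 FPKM at 4%, and 230.5 and 243.1 FPKM at 20% pO2 (PT2385, then vehicle). The hypoxic libraries were all below the normoxic ones. It was lower by limma at 1% (-0.34 ± 0.05, adjusted p = 0.00574) and at 4% (-0.52 ± 0.05, adjusted p = 0.00129). The difference between 1% and 4% (0.19 ± 0.05, adjusted p = 0.0410) was lost in 6 of 12 alternatives, with adjusted p up to 0.224.

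*Cox7a1* made up 3.50% and 5.92% of the pair's FPKM at 1% pO2 and 9.45% and 9.27% at 4%, against 0.510% and 0.328% at 20% (PT2385, then vehicle). The mean share was 7.03% ± 2.86 in the 4 hypoxic libraries and 0.419% ± 0.129 in the 2 normoxic ones (SD). The groups did not overlap. The exact two-sided permutation test gave p = 0.133, where 4 libraries against 2 allow no p below 0.0667. *Cox7a2* still exceeded *Cox7a1* in every library, 9.58-fold to 27.6-fold in hypoxia and 195-fold to 304-fold in normoxia. The sum of both genes was 201.7 and 191.5 FPKM at 1%, 183.3 and 179.5 FPKM at 4%, and 231.7 and 243.9 FPKM at 20%.

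**Figure D2:**
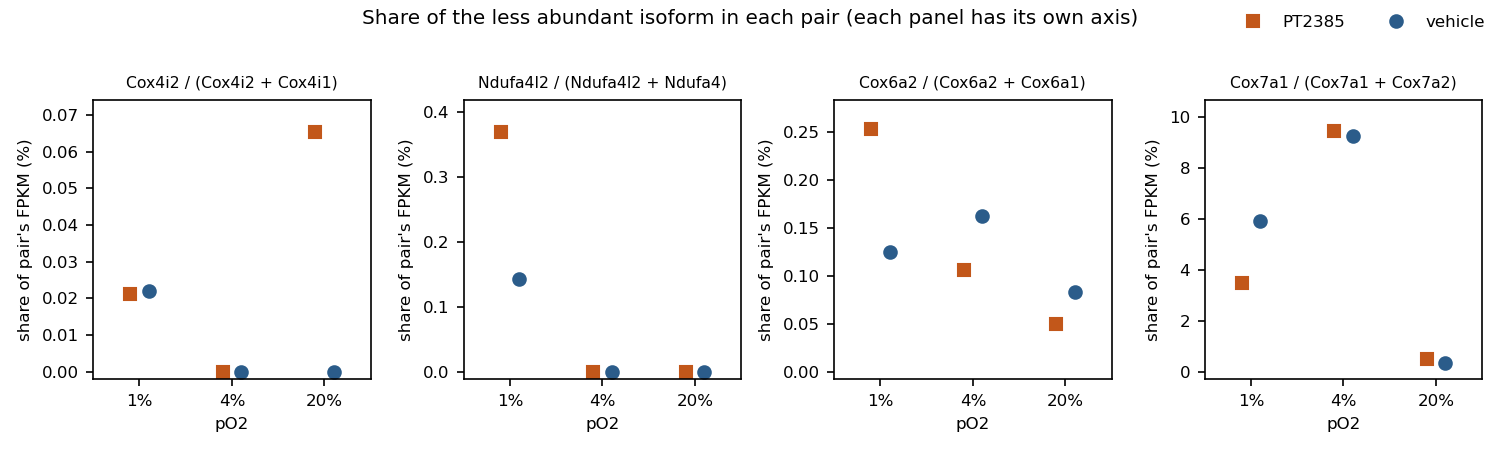
Share of the less abundant isoform in the summed FPKM of its pair (percent, each panel with its own axis) at 1%, 4% and 20% pO2, with 1 library a point, PT2385 left of vehicle. Only the *Cox7a1* panel reaches several percent, at 3.50% to 9.45% in hypoxia and 0.328% to 0.510% in normoxia, while the other 3 stay at or below 0.369%.

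The 5 genes most like *Cox7a1* in profile were *Arrb1*, *Aqp1*, *Cotl1*, *Penk* and *Arap3*, with a root mean square difference of 0.21 to 0.24 over the 6 libraries. *Aqp1*, a water channel gene, had 9.53 and 9.70 FPKM at 1%, 15.9 and 18.5 FPKM at 4%, and 1.58 and 1.23 FPKM at 20% pO2. *Penk*, which encodes the enkephalin precursor, had 11.8 and 11.7 FPKM, 24.6 and 23.8 FPKM, and 1.58 and 0.838 FPKM in the same order. In contrast to *Cox7a1*, both had nearly the same level with PT2385 as with vehicle at 1%.

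The other heart and muscle isoform, *Cox6a2* (chr7:128205435-128206387, minus strand), stayed low throughout. It had 0.968 FPKM with PT2385 and 0.437 FPKM with vehicle at 1%, 0.394 and 0.592 FPKM at 4%, and 0.172 and 0.260 FPKM at 20% pO2. These values stand for 11.1 and 5.04 fragments, 4.01 and 7.06 fragments, and 2.00 and 3.02 fragments. The hypoxic libraries were all above the normoxic ones by a few fragments. The vehicle ratio at 1% over 20% was 1.68 with an interval of 0.327 to 10.8, and at 4% over 20% it was 2.28 (0.520 to 13.6). Its share of the pair with *Cox6a1* was 0.161% ± 0.065 in hypoxia (SD, n = 4) and 0.066% ± 0.024 in normoxia (SD, n = 2), p = 0.133 by the exact permutation test. Fitted without the filter on low values, it did not pass at 1% (0.47 ± 0.19, adjusted p = 0.218) or at 4% (0.29 ± 0.19, adjusted p = 0.397).

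*Cox6a1* (chr5:115345642-115348981, minus strand), the form of most tissues, changed little. It had 382.2 and 349.8 FPKM at 1%, 371.6 and 364.8 FPKM at 4%, and 347.3 and 311.2 FPKM at 20% pO2 (PT2385, then vehicle). The lowest hypoxic library was only just above the highest normoxic one. The limma difference was 0.15 ± 0.04 at 1% (adjusted p = 0.0372) and 0.16 ± 0.04 at 4% (adjusted p = 0.0292). The calls were lost in 7 of 12 alternatives at 1% (adjusted p up to 0.215) and in 8 of 12 at 4% (up to 0.179). No difference was seen between 1% and 4% (-0.01 ± 0.04, 95% interval -0.12 to 0.10, adjusted p = 0.871). Of the 50-base stretches of its transcripts, 9.16% also occur in another gene model.

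*Ndufa4* (chr6:11900292-11907497, minus strand), first assigned to complex I and now placed in complex IV, was the member with the largest decrease. It had 296.6 and 284.0 FPKM at 1%, 273.7 and 263.9 FPKM at 4%, and 442.5 and 454.1 FPKM at 20% pO2 (PT2385, then vehicle). The hypoxic and normoxic libraries were far apart, while 1% and 4% were close to each other. The vehicle ratio was 0.625 at 1% over 20% (0.586 to 0.667) and 0.581 at 4% over 20% (0.544 to 0.620). By limma it was lower at 1% (-0.63 ± 0.04, adjusted p = 0.000366) and at 4% (-0.74 ± 0.04, adjusted p = 2.00e-04). Between 1% and 4% the difference was 0.11 ± 0.04 and did not pass (adjusted p = 0.0762).

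Its hypoxia-linked relative *Ndufa4l2* (chr10:127514967-127517154, plus strand) was found only at 1% pO2, with 1.10 FPKM under PT2385 and 0.407 FPKM under vehicle, and was listed at 0 in the other 4 libraries. The 1% values stand for about 5.10 to 20.3 and 1.91 to 7.58 fragments. A count of 0 would allow up to 0.620 to 0.725 FPKM at 4% and up to 0.635 FPKM at 20% (3 fragments on the shortest transcript). On that transcript, the vehicle value at 1% is not above what those libraries could hold unseen. On the longest transcript the limits are 0.156 to 0.182 FPKM at 4% and 0.159 to 0.160 FPKM at 20%, below that value. The share of *Ndufa4l2* in the pair was at most 0.369%, and the hypoxic and normoxic groups overlapped (p = 0.733 by the exact permutation test). Fitted without the filter on low values, the difference between 1% and 20% was 0.78 ± 0.18 and did not pass (adjusted p = 0.0706). *Ndufa4l2* overlaps *Shmt2* on the other strand, which had 136.8 to 202.4 FPKM, and fragments from the overlap cannot be told apart without strand.

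*Cox4i1* (chr8:120668222-120674207, plus strand), the common form of subunit 4, was lower at 4% pO2 and did not pass the test at 1%. It had 382.6 and 363.7 FPKM at 1%, 314.6 and 300.5 FPKM at 4%, and 360.6 and 370.4 FPKM at 20% pO2 (PT2385, then vehicle). The 1% and 20% libraries overlapped, and both 4% libraries lay below all others. The limma difference was 0.03 ± 0.04 at 1% (95% interval -0.08 to 0.14, adjusted p = 0.593) and -0.25 ± 0.04 at 4% (adjusted p = 0.00645). The 1% libraries were higher than those at 4% by 0.28 ± 0.04 (adjusted p = 0.00616). That last call was lost without the 1% PT2385 library (0.25, adjusted p = 0.0570). *Cox4i1* overlaps *Emc8*, at 57.3 to 80.3 FPKM on the other strand, and *Gm20388*, at 9.07 to 13.6 FPKM.

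*Cox4i2* (chr2:152754173-152765037, plus strand) was at the edge of detection. It had 0.0804 and 0.0799 FPKM at 1% pO2, was listed at 0 in both 4% libraries, and had 0.236 FPKM with PT2385 at 20%, where vehicle was listed at 0. These stand for about 1 fragment in each 1% library and 3 in the 20% library. Its share of the pair was at most 0.065%, and *Cox4i1* exceeded it at least 1527-fold in the 3 libraries where both were seen. The groups overlapped (exact permutation p = 0.533), and no exchange between *Cox4i1* and *Cox4i2* was detectable at this depth. Of 13 regulators of these isoforms and HIF subunits, 10 were tested, and 1 was higher and 4 lower at 1%, 2 higher and 3 lower at 4%. Of all genes tested, 25.0% were higher and 21.9% lower at 1%, and 27.5% higher and 22.7% lower at 4%. Among those known to act on the human COX4I2 promoter, *Rbpj* was higher at both levels (48.0 and 53.8 FPKM at 1%, 39.9 and 40.7 FPKM at 4%, 30.8 and 34.0 FPKM at 20% pO2). *Cxxc5* was lower at both (60.9 and 59.8 FPKM, 76.9 and 72.7 FPKM, 107.4 and 104.2 FPKM in the same order). *Chchd2*, also among the regulators listed, was lower at 4% by limma (-0.26 ± 0.05, adjusted p = 0.0107). It did not pass at 1% (-0.15 ± 0.05, adjusted p = 0.0582).

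Among all members, 6 of the 7 tested members passed at 1% against 20% pO2, 4 of them higher and 2 lower. Over all 11967 genes, 25.0% passed as higher and 21.9% as lower, so a pass by itself is common in this fit. At 4% all 7 passed, 4 higher and 3 lower, where 27.5% of all genes were higher and 22.7% lower. Between 1% and 4% pO2, 4 members were higher at 1% and 1 was lower, with 20.7% and 22.3% of all genes. The 2-fold limit in vehicle at both hypoxic levels was met by *Cox7a1* and *Higd1a* and by 3.97% of all genes, and 0 members were 2-fold lower at both, as 1.13% of all genes were. The 2 libraries at a pO2 differ in treatment, so the test sets pO2 against the spread left by treatment, with 2 residual degrees of freedom. Nothing in the sources says that this spread is that of separate cultures, and a difference between the 3 sets of cultures cannot be told apart from one of pO2.

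**Figure D3:**
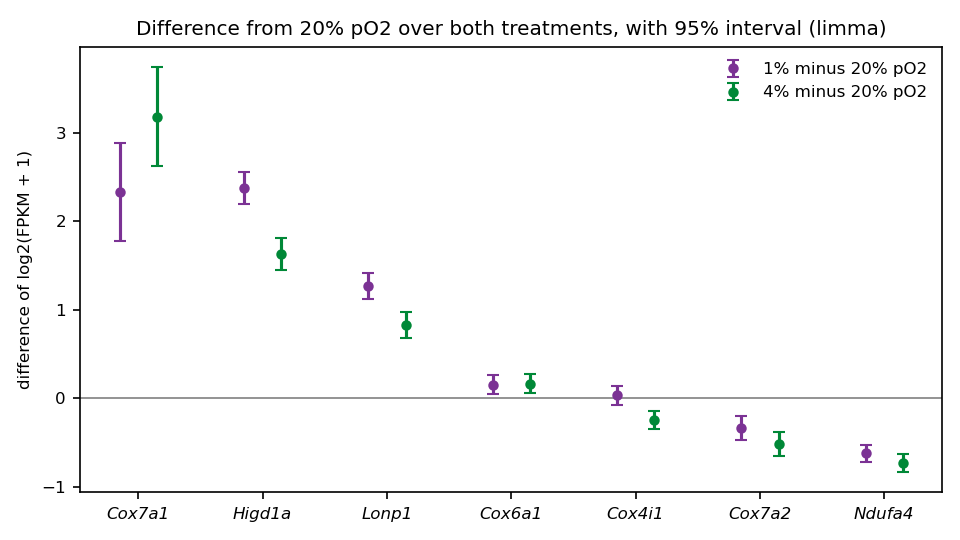
Difference of log2(FPKM + 1) from 20% pO2 over both treatments (vertical axis) for the 7 tested members, with points for 1% minus 20% and 4% minus 20% pO2 and bars for the 95% interval from limma. *Cox7a1*, *Higd1a* and *Lonp1* lie well above 0 at both levels, *Cox6a1* just above it, *Cox7a2* and *Ndufa4* below it, and *Cox4i1* is below 0 only at 4%.

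Of the 12 complex IV subunit genes outside the pairs, 9 were tested. None of these 9 rose by limma as much as *Cox7a1*, *Higd1a* or *Lonp1*. At 1% pO2, 1 was higher (*Cox7a2l*, which takes part in supercomplexes, 0.21 ± 0.05, adjusted p = 0.0169) and 3 were lower. At 4%, 0 were higher and 4 were lower, beside 25.0% higher and 21.9% lower of all genes at 1% and 27.5% and 22.7% at 4%. The median limma difference was -0.17 at 1% and -0.23 at 4%. *Cox6b2*, the testis form of subunit 6b, had the widest range, with 17.8 and 15.3 FPKM at 1%, 5.78 and 6.19 FPKM at 4%, and 19.6 and 17.8 FPKM at 20% pO2. It fell at 4% (-1.50 ± 0.09, adjusted p = 0.000273) and did not pass at 1% (-0.17 ± 0.09, adjusted p = 0.177). It was named after its values were seen. The third heart and muscle isoform gene, *Cox8b*, had 0.715 and 1.19 FPKM at 1%, 0.265 and 0.460 FPKM at 4%, and 0.235 FPKM with vehicle at 20% pO2, where PT2385 was listed at 0. The 4 hypoxic libraries were all above both normoxic ones, but the lowest of them (0.265 FPKM) only just. The fragments behind these low values were not estimated. The mean of *Cox8b* was under 1 FPKM, so it was not tested. *Cox7b2* was listed at 0 throughout. Summed over the 20 complex IV subunit genes, FPKM was 3553 and 3383 at 1%, 3439 and 3384 at 4%, and 3949 and 3802 at 20% pO2, so both normoxic libraries were highest.

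Of 25 genes for assembly factors of complex IV, 23 were tested. At 1%, 2 were higher and 7 lower, and 2 were higher and 8 lower at 4%, with medians of -0.08 and -0.09. The shares of all genes tested were 25.0% higher and 21.9% lower at 1%, and 27.5% higher and 22.7% lower at 4%. *Taco1*, which activates translation of mitochondrial COX1, had 5.92 and 5.51 FPKM at 1%, 7.83 and 7.30 FPKM at 4%, and 9.74 and 10.6 FPKM at 20% pO2. *Coa3*, which acts in the same early step, had 36.3 and 34.2 FPKM, 32.3 and 31.4 FPKM, and 46.7 and 42.1 FPKM. *Lrpprc*, which stabilises mitochondrial mRNA, had 18.7 and 18.8 FPKM, 23.6 and 23.7 FPKM, and 27.8 and 26.8 FPKM. These 3 were lower at both hypoxic levels. *Sco2*, a copper chaperone gene, was higher at both, with 15.5 and 11.3 FPKM, 18.1 and 14.7 FPKM, and 11.96 and 9.31 FPKM.

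**Figure D4:**
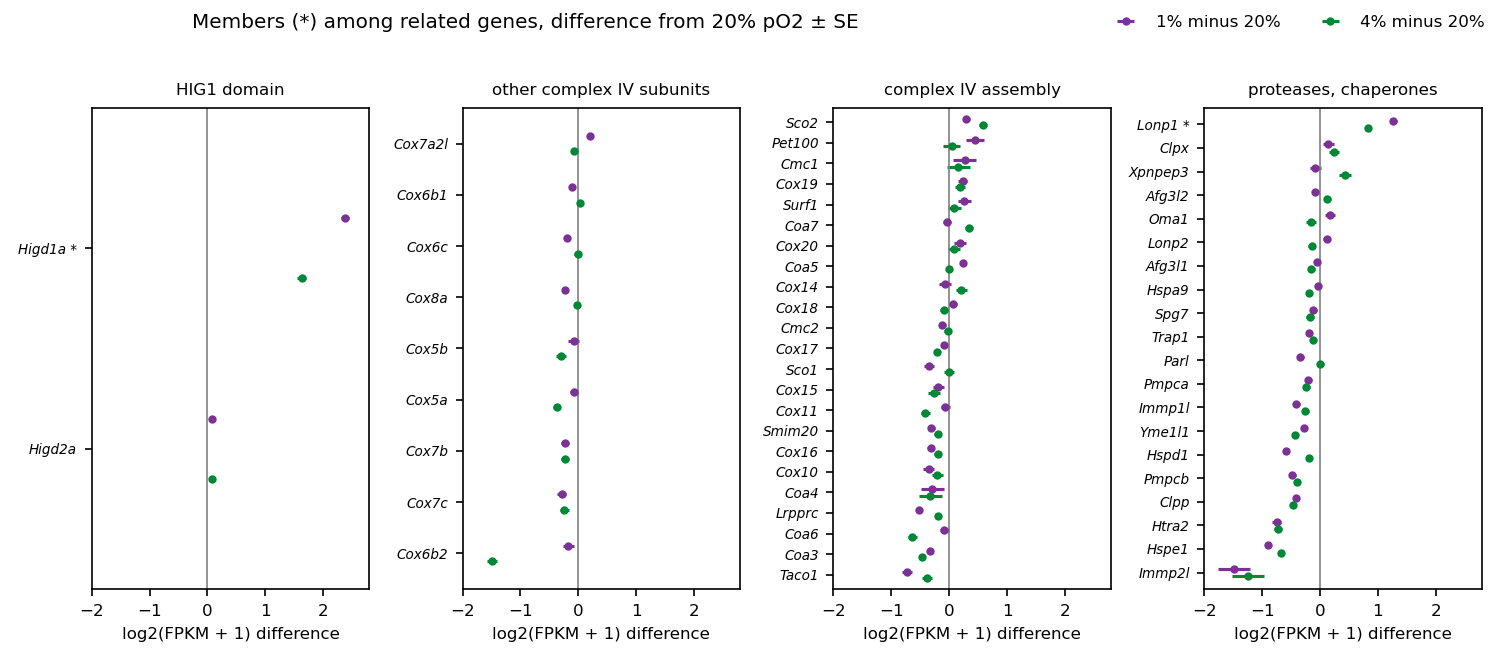
Difference of log2(FPKM + 1) from 20% pO2 (horizontal axis, points with SE from limma, 1% and 4% pO2) for the tested HIG1 domain genes, other complex IV subunits, complex IV assembly factors and mitochondrial proteases and chaperones, with members marked by an asterisk. *Higd1a* (2.37 and 1.63) and *Lonp1* (1.27 and 0.83) stand to the right of every other gene in their panels.

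PT2385 changed none of the 7 tested members at an adjusted p of 0.05. Over all 11967 genes the limma test called 0% as higher and 0% as lower. At an unadjusted p under 0.05 there were 1454 genes (12.2%), and limma without a trend called 0 higher and 1 lower. The differences of PT2385 minus vehicle over the 3 pO2 levels lay between -0.09 for *Cox7a1* (95% interval -0.55 to 0.36, adjusted p = 0.847) and 0.10 for *Cox6a1* (0.01 to 0.19, adjusted p = 0.384). *Higd1a* had 0.04 (-0.10 to 0.19, adjusted p = 0.767) and *Lonp1* had -0.02 (-0.14 to 0.10, adjusted p = 0.871). A member that did not pass is not thereby shown to be equal in both treatments. *Epas1*, the gene of HIF-2α itself, named after its values were seen, had at most 0.273 FPKM in any library, whereas *Hif1a* had 41.3 to 57.2 FPKM. These are RNA values, and these libraries do not measure protein. The paper reported HIF-2α protein in hypoxic human myoblasts. It also reported HIF-2α bound at the promoter of the angiotensin converting enzyme gene in hypoxic mouse myoblasts.

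At single pO2 levels, with no test, the largest differences were in members with few fragments. At 1% pO2, *Cox7a1* had 7.06 FPKM with PT2385 and 11.3 FPKM with vehicle, a ratio of 0.623 (0.395 to 0.960, counting error only). At 4% the ratio was 1.04 (0.752 to 1.42), and at 20% it was 1.48 (0.355 to 7.22). *Ndufa4l2* at 1% had a ratio of 2.70 with an interval of 0.413 to 26.5, and *Cox6a2* at 1% had 2.21 (0.711 to 8.15). Among abundant members, *Lonp1* at 1% had 0.921 (0.887 to 0.955), *Cox6a1* had 1.09 at 1% (1.04 to 1.15) and 1.12 at 20% (1.06 to 1.17). Across the 11967 genes tested, the middle 95% of differences ran from -0.38 to 0.40 at 1%, -0.49 to 0.50 at 4% and -0.40 to 0.41 at 20% pO2. *Cox7a1* (-0.61), *Ndufa4l2* and *Cox6a2* at 1% were the members outside it. *Ndufa4l2* and *Cox6a2* averaged under 1 FPKM and so were not among those genes.

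**Figure D5:**
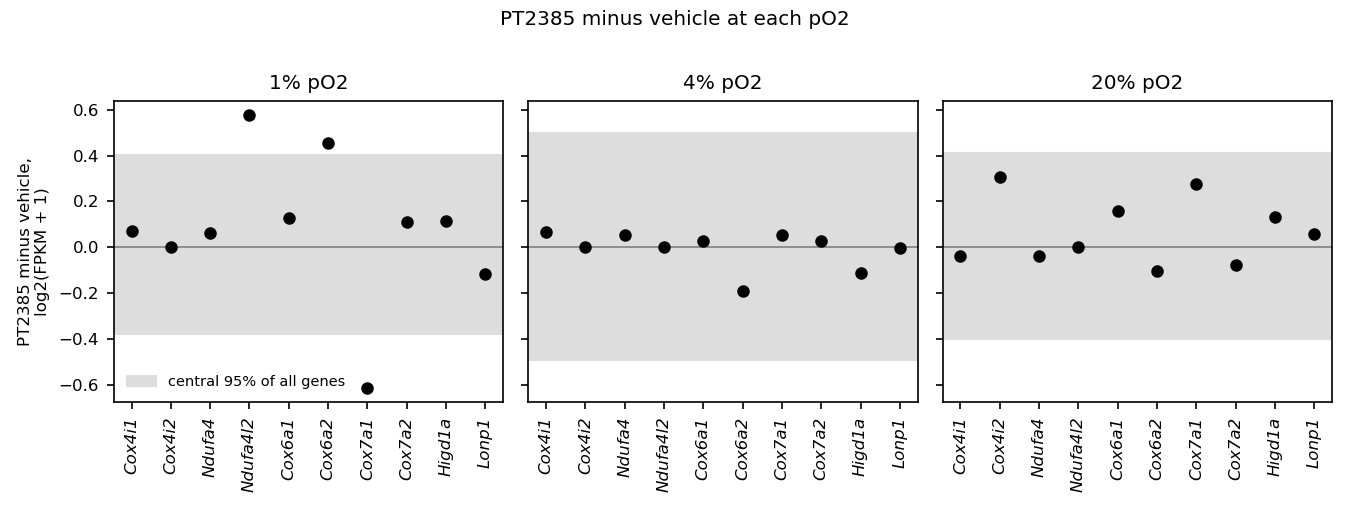
PT2385 minus vehicle on the log2(FPKM + 1) scale (vertical axis) for each of the 10 members at 1%, 4% and 20% pO2, with 1 pair of libraries a panel. The grey band is the middle 95% of all genes with a mean of at least 1 FPKM, and 3 points, all at 1%, lie outside it (*Cox7a1* at -0.61, *Ndufa4l2* and *Cox6a2* above the band).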

How the data were processed

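RNA-seq of 6 libraries of mouse primary myoblasts, 1 a condition, was analysed. The authors deposited a table that was read as FPKM per gene. No source states this unit, which fits the range of the values and the use of Cuffdiff. The submitters' processing notes list HISAT2 2.1.0, SAMtools 1.3.1, Cufflinks and Cuffdiff 2.2.1 with GRCm38 (mm10), while the supplementary methods name TopHat2. How strand was treated is not given in the sources used here.

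Members were matched by symbol, and positions came from GENCODE M21 (99.8% of identifiers matched). Values were put on the log2 scale from the deposited FPKM with a pseudocount of 1. limma 3.58.1 in R 4.3.3, with a trend in the variance, was fitted to all 6 libraries with pO2 and treatment as terms, over genes averaging 1 FPKM or more, with Benjamini-Hochberg adjustment. The step was tested on simulated data. Fragments behind low values were estimated from the step of 1 fragment (90.8% to 92.7% of low values lay within 0.1 of a whole number). Their ratios have exact binomial 95% intervals, on the shortest transcript, for counting error only. Shares of pairs were compared by exact permutation. Promoters came from RefSeq (GRCm38.p6), for 6 of 10 members.

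Named genes are all members, up to 4 a list that passed at both hypoxic levels (limma, or 2-fold in vehicle) by size of the mean vehicle difference, and the 5 genes nearest in profile to *Cox7a1*. Profiles of *Cox4i2*, *Ndufa4l2* and *Cox6a2* were not matched in the text, since they rest on few fragments. *Higd2a*, *Lonp2*, *Xpnpep3*, *Cox7a2l*, *Cox6b2*, *Cox8b*, *Cd14*, *Epas1* and *Hif1a* fall outside this rule and were named after their values were seen. The same holds for *Myf5*, *Col3a1*, *Pdgfra*, *Dcn*, *Lum*, *Col1a1* and *Chchd2*, and for the 5 genes nearest in profile to *Higd1a*. Members and lists were chosen with earlier results of these data known. Each choice was varied in turn, with a pseudocount of 0.1, without the filter, with the filter raised to 5 FPKM, after median-ratio scaling on genes averaging 10 FPKM or more, with limma without a trend or without the other term, leaving out each library, PT2385 libraries in place of vehicle, 1.5-fold, and pairs by treatment or as log2 ratios. Python 3.11.15 with numpy 2.4.6, pandas 2.3.3, scipy 1.17.1 and matplotlib 3.10.9 was also used.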

Additional observations from a re-analysis of the deposited data

Results flagged for a closer look

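For *Cox7a1*, PT2385 minus vehicle had opposite signs at the lowest and the highest pO2. PT2385 minus vehicle was -0.61 at 1% pO2 (7.06 FPKM with PT2385, 11.3 FPKM with vehicle) and 0.28 at 20% pO2 (1.18 FPKM with PT2385, 0.801 FPKM with vehicle), on the log2(FPKM + 1) scale. The 2 differences are -0.89 apart. This difference was not tested, because each condition is 1 library. The 20% values rest on about 6.02 and 4.07 fragments on the shortest transcript, and the counting interval of the 20% ratio (0.355 to 7.22) includes that at 1% (0.623).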

How the results depend on the processing

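At 1% against 20% pO2, 5 to 6 of the 7 tested members passed under the 12 alternatives, and at 4% against 20% pO2 6 to 7 did. Every call lost in these 2 comparisons was that of *Cox6a1*. Between 1% and 4% pO2, 5 members passed, against 3 with no filter on low values and 3 with no trend in the variance, and 2 to 5 with one library left out. The lowest count, 2, came without the 1% PT2385 library, 3 came without either 4% library, and *Higd1a* and *Lonp1* passed in all 12. No alternative changed the PT2385 count of 0 members. Counts over all genes at 1% against 20% fell to 1756 higher and 1297 lower without the 20% vehicle library, beside 2989 and 2626. At 1.5-fold in vehicle, 1 member (*Ndufa4*) was lower at both hypoxic levels, against 0 at 2-fold. The hypoxic minus normoxic share of *Cox4i2* was -0.022 percentage points, and 0.011 in vehicle only and -0.055 in PT2385 only. As log2 ratios with 0.1 added, the hypoxic minus normoxic difference was 3.96 for *Cox7a1* to *Cox7a2*, 2.16 for *Ndufa4l2* to *Ndufa4*, 0.93 for *Cox6a2* to *Cox6a1* and -0.34 for *Cox4i2* to *Cox4i1*. Depth limits *Cox4i2*, *Ndufa4l2* and *Cox6a2*, whose values rest on at most 20.3 fragments, and *Cox7a1* at 20% pO2. PT2385 was set against vehicle within pO2 by the pO2 term of the fit, and without that term 0 members passed as well.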
